A study of Danio rerio with 6 samples.

Results

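Wnt ligands are secreted, lipid-modified proteins, and Frizzled proteins are the seven-pass membrane receptors that bind them. In the canonical branch, binding to a Frizzled and an LRP co-receptor stabilises beta-catenin, which with TCF factors switches on target genes and gives posterior and dorsal character to neural and mesodermal tissue. In the planar polarity branch, ligands of the Wnt5 and Wnt11 kind act through Frizzled receptors and the Vangl, Prickle and Celsr proteins to orient cells and drive the narrowing and lengthening of the embryonic axis. In the vertebrate neural tube Wnt ligands of the canonical branch are best known from the roof plate and in fish embryos also from the tailbud.

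The genes described here are those whose symbol begins with wnt or fzd followed by a digit, which gave 37 of 30677 symbols, 24 ligands and 13 receptors, listed through 50 of 54437 transcripts. Zebrafish embryos of 14 hours post fertilisation had lost brain and tail by dissection, and RNA of the GFP-positive cells sorted from what remained was sequenced, per the labels' protocols. The 3 groups were cells of the transgenic lines TgBAC(nkx2.2a:memGFP), TgBAC(olig2:GFP) and TgBAC(dbx1b:GFP), with 2 libraries each and the genotype given as WT. The genes nkx2.2a, olig2 and dbx1b mark, from ventral to dorsal, the p3, motor neuron (pMN) and p0 progenitor domains of the neural tube. A bacterial artificial chromosome carries each reporter, and a membrane form of GFP is used in the nkx2.2a line, so line, reporter and sort cannot be told apart from the group.

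The libraries held 3.25 to 6.93 M (units of 1000000) fragments mapped to transcripts, and 19.4% to 33.4% of fragments mapped. In counts per 1000000 mapped reads with TMM-scaled library totals (CPM), each reporter's gene had its highest levels in the matching sort. For nkx2.2a this was 363 to 493 CPM there and 0.539 to 26.5 CPM elsewhere. For olig2 it was 125 to 219 CPM against 1.80 to 70.2 CPM, and for dbx1b 182 to 215 CPM against 9.22 to 49.1 CPM. The values of 70.2 and 49.1 CPM were both from nkx2.2a library 2, where nkx2.2a library 1 had 19.2 and 11.5 CPM. The 8 neural progenitor markers listed, among them sox3, sox19a and cdh2, summed to 2005 to 2625 CPM in the 6 libraries, and 0 of them were at 0 in any library. Of this sum, cdh2 alone was 743 to 1217 CPM, and single markers differed between sorts. The level of pax6a was 32.6 and 27.4 CPM in nkx2.2a and 131 to 163 CPM elsewhere. That of nes was 224 and 156 CPM in olig2 but 77.1 and 46.3 CPM in dbx1b. In these bulk samples, fewer cells of a type and less RNA per cell cannot be told apart.

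No Wnt or Frizzled gene passed the quasi-likelihood test of edgeR at an adjusted p of 0.05 (Benjamini-Hochberg, over all 19129 symbols tested) in any of the 3 comparisons. Of all symbols, 0% passed when nkx2.2a cells were set against olig2 cells, 0.00523% when they were set against dbx1b cells, and 0% when olig2 cells were set against dbx1b cells. The levels below are therefore a description of 2 libraries per sort, and a difference is given with its standard error (SE) and both its unadjusted and its adjusted p. DESeq2, run as a second tool on the same symbols, called 1, 3 and 4 of the members in the same order, where it called 3.37%, 2.4% and 4.21% of the symbols to which it gave an adjusted p. In the first comparison this was fzd8b, and in the second fzd10, wnt5b and wnt7bb. In the third it was fzd8b, wnt5b, wnt8a and wnt8-2, where wnt8a and wnt8-2 divide the reads of 1 locus. Among the tested members, wnt2bb, wnt6b, wnt9b and wnt10a got no adjusted p from DESeq2.

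Named with their values are the 22 genes, 11 ligands and 11 receptors, whose highest group mean reached 10 CPM. Among the receptors, 7 of the 11 stayed above 20 CPM in all 6 libraries, namely fzd2, fzd3a, fzd4, fzd6, fzd7a, fzd7b and fzd10. Among the ligands, 2 of the 11 did, namely wnt4a and wnt11r.

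**Figure D1:**
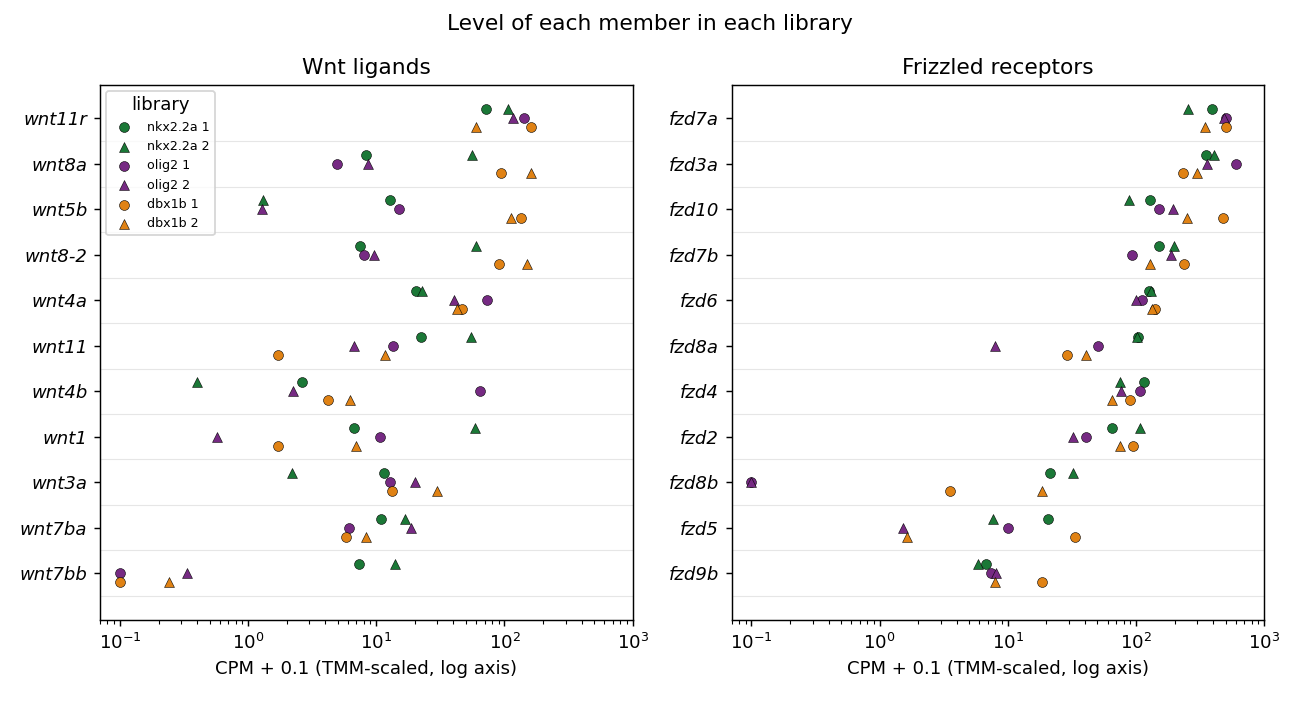
TMM-scaled CPM plus 0.1 (log axis) of the 11 ligands (left) and 11 receptors (right) with a highest group mean of at least 10 CPM, 1 point for each of the 6 libraries; circles are library 1 and triangles library 2 of a sort, and points at 0.1 are values of 0. On this axis the receptors fzd3a, fzd4, fzd6, fzd7a and fzd7b spread less than fzd5, fzd8a and fzd8b, though fzd3a still runs from 231 to 599 CPM. The ligands wnt5b, wnt8a and wnt8-2 lie highest in both dbx1b libraries and wnt7bb in both nkx2.2a libraries.

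Compared per length, with the authors' FPKM (reads per 1000 bases of transcript and per 1000000 mapped reads) summed over the transcripts of a symbol, fzd7a was the most abundant Frizzled transcript in each of the 6 libraries. Its level was 143 and 78.3 FPKM in nkx2.2a libraries 1 and 2, 172 and 166 FPKM in the olig2 libraries, and 159.8 and 119.6 FPKM in the dbx1b libraries, which was 22.1% to 40.4% of all Frizzled FPKM in a library. Second place went to fzd10 in both dbx1b libraries, at 140.2 and 79.7 FPKM. In the other 4 libraries it went to fzd3a (64.0 FPKM in nkx2.2a library 1 and 104.5 FPKM in olig2 library 1) or fzd7b (61.3 FPKM in nkx2.2a library 2 and 64.7 FPKM in olig2 library 2). All Frizzled genes together summed to 354 to 529 FPKM.

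The ligands summed to less, 84.6 to 220.01 FPKM per library, and their order differed between sorts and also between libraries of a sort. The gene called wnt11r in the files was first in 5 of the 6 libraries, at 32.8 and 41.2 FPKM in nkx2.2a, 60.2 and 49.3 FPKM in olig2 and 63.4 FPKM in dbx1b library 1. In dbx1b library 2 it stood at 25.7 FPKM, behind the wnt8 locus at 93.2 FPKM and wnt5b at 49.5 FPKM. In both olig2 libraries wnt4a was second, at 29.7 and 16.6 FPKM. In nkx2.2a, second place went to wnt11 in library 1 (9.60 FPKM) and to the wnt8 locus in library 2 (31.4 FPKM). Ligand totals were highest in the dbx1b sort, at 201 and 220.01 FPKM, of which wnt5b and the wnt8 locus together made up the larger part in both libraries.

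**Figure D2:**
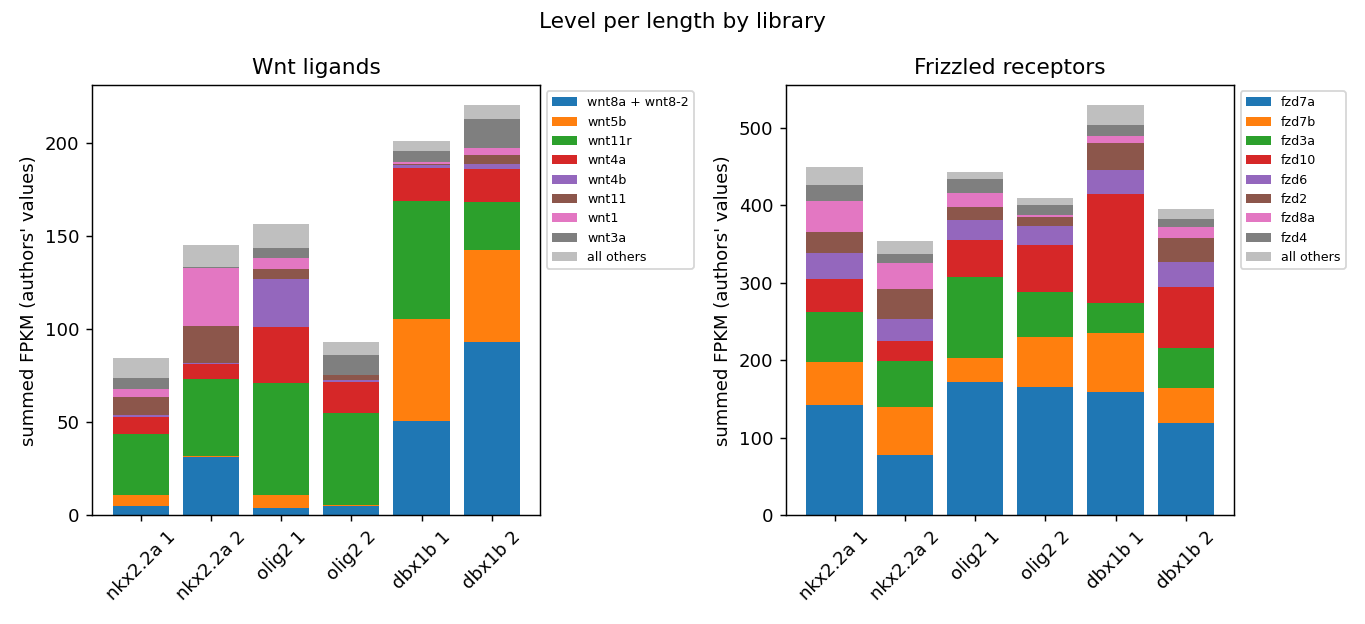
Summed FPKM, as deposited by the authors, of Wnt ligands (left) and Frizzled receptors (right), stacked by gene for each of the 6 libraries, with the genes not named in the legend added up in light grey. The receptor stacks share fzd7a as their largest part, while the wnt5b and wnt8 parts of the ligand stacks are large in both dbx1b libraries.

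The canonical ligand gene wnt8a, which patterns the ventral and posterior mesoderm and posteriorises the neural plate of the fish embryo, was most abundant in dbx1b cells. The files list it beside wnt8-2 under accessions of the same transcript length (3422 bases), and the RefSeq table (assembly GRCz12tu) gives both symbols the same start and end, in keeping with the known bicistronic wnt8 locus. Reads were divided between them almost evenly: wnt8a took 38.1% (exact Clopper-Pearson 95% interval 23.6% to 54.4%, counting error only) to 52.5% (42.2% to 62.7%) of the fragments of the pair in a library. The pair is therefore described as 1 locus by its sum. The wnt8 locus stood at 15.6 and 116 CPM in nkx2.2a libraries 1 and 2, at 12.7 and 17.96 CPM in olig2, and at 184 and 311 CPM in dbx1b.

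Both dbx1b libraries lay above the other 4, and nkx2.2a library 2 lay well above nkx2.2a library 1 and both olig2 libraries. The means were 248 ± 89.5 CPM (SD, n = 2) in dbx1b, 66.0 ± 71.3 CPM in nkx2.2a and 15.4 ± 3.69 CPM in olig2. With the symbols summed, the log2 fold change was -4.01 ± 0.88 (SE) in olig2 over dbx1b cells by edgeR (95% interval -5.98 to -2.04, unadjusted p = 0.00124, adjusted p = 0.324). It was -1.91 ± 0.80 in nkx2.2a over dbx1b (adjusted p = 0.783, unadjusted p = 0.0399). Between nkx2.2a and olig2 cells it was 2.10 ± 0.81, the first being higher (adjusted p = 0.554, unadjusted p = 0.0287). For wnt8a alone the difference between nkx2.2a and olig2 cells, 2.26, came to 0.30 without nkx2.2a library 2. That between nkx2.2a and dbx1b cells, -1.99, came to -1.17 without nkx2.2a library 1 and to -3.96 without library 2, whereas that between olig2 and dbx1b cells stayed between -4.73 and -3.78 in 15 alternatives.

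The planar polarity ligand gene wnt5b (pipetail), which is needed for extension of the tail, had the same order of sorts at its top. Its level was 12.7 and 1.21 CPM in nkx2.2a libraries 1 and 2, 14.9 and 1.18 CPM in the olig2 libraries, and 135 and 112 CPM in the dbx1b libraries. The dbx1b libraries did not overlap with any other library, while the nkx2.2a and olig2 libraries overlapped. The log2 fold change was -4.12 ± 1.30 in nkx2.2a over dbx1b cells by edgeR (unadjusted p = 0.0110, adjusted p = 0.667). It was -3.95 ± 1.29 in olig2 over dbx1b cells (unadjusted p = 0.0133, adjusted p = 0.470). In nkx2.2a over olig2 cells it was -0.17, with a 95% interval of -2.80 to 2.46, which spans large differences either way. Without nkx2.2a library 1 the first of these became -6.65, and without olig2 library 1 the second became -6.70.

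Most markers of tailbud and presomitic mesoderm were high in the same libraries. Of the 10 listed markers found, 9 were lower in nkx2.2a than in dbx1b cells and 8 were lower in olig2 than in dbx1b cells at unadjusted p under 0.05, with 0 higher in either. Of all symbols, 2.67% and 5.83% were lower. The marker tbx24 was at 77.3 and 109 CPM in nkx2.2a, 45.5 and 120 CPM in olig2, and 70.3 and 31.6 CPM in dbx1b. Both nkx2.2a libraries thus lay above both dbx1b libraries for it. For cdx4 the log2 fold change in olig2 over dbx1b cells was -0.22 ± 0.34 (edgeR unadjusted p = 0.545). The summed level of the 10 markers was 363 and 555 CPM in nkx2.2a, 763 and 634 CPM in olig2, and 2397 and 2152 CPM in dbx1b cells, and 0 of them were at 0 in any library. Between the nkx2.2a libraries the markers went both ways. In library 1 and library 2 respectively, tbx16 was at 5.51 and 37.7 CPM and tbx6 at 42.0 and 236 CPM, and tbx24, her1 and her7 were also higher in library 2. In contrast ta was at 20.1 and 4.52 CPM, fgf8a at 35.6 and 15.7 CPM and dlc at 59.2 and 30.1 CPM, and msgn1 and cdx4 were also higher in library 1. The part of such cells in the wnt8 and wnt5b levels was not tested.

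**Figure D3:**
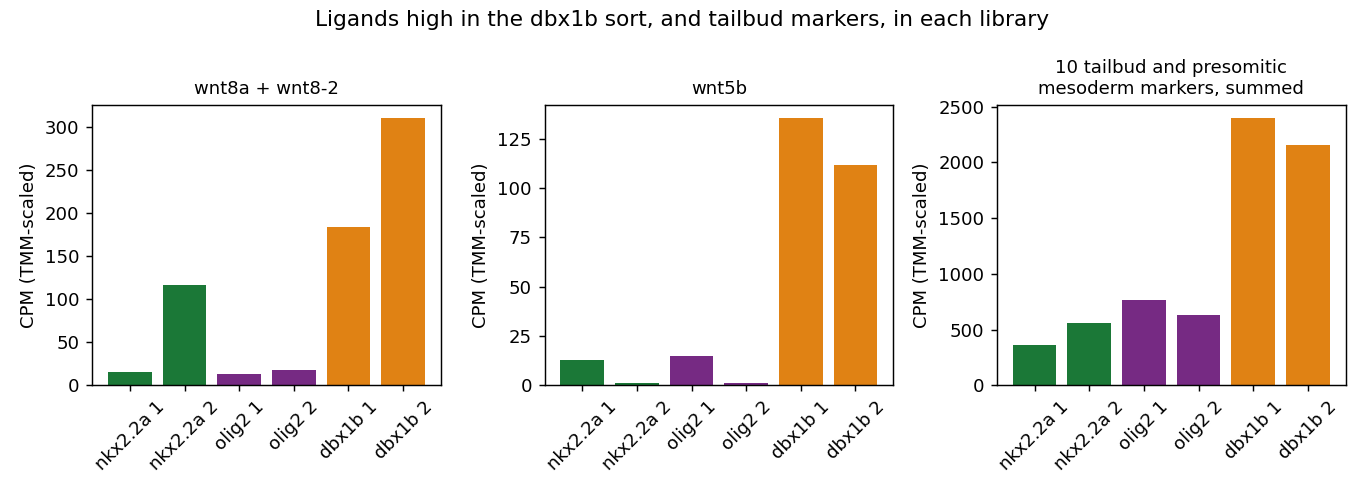
TMM-scaled CPM in each of the 6 libraries of the wnt8 locus (left), wnt5b (middle) and the sum of 10 tailbud and presomitic mesoderm markers (right); bars start at 0 and colours mark the sorts. In all 3 panels both dbx1b bars are the tallest, and nkx2.2a library 2 stands out among the remaining bars for the wnt8 locus, at 116 CPM.

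Other canonical ligands known from the dorsal neural tube were low or uneven. The roof plate ligand gene wnt1 stood at 6.61 and 58.5 CPM in nkx2.2a libraries 1 and 2, 10.6 and 0.473 CPM in olig2, and 1.62 and 6.89 CPM in dbx1b. A single library thus held most of it, and the groups overlapped. The levels of wnt3a, a ligand of tailbud and dorsal neural tube, were 11.5 and 2.11 CPM in nkx2.2a, 12.7 and 20.1 CPM in olig2, and 13.1 and 29.8 CPM in dbx1b. Here both dbx1b libraries lay above both nkx2.2a libraries, both olig2 libraries did too, and the olig2 and dbx1b libraries overlapped. None of their 6 differences had an unadjusted p under 0.05, and the interval for wnt1 in nkx2.2a over dbx1b cells ran from -0.73 to 6.59 on the log2 scale. Neural crest and roof plate markers, 10 of 13 found, summed to 283 and 317 CPM in nkx2.2a, 419.9 and 332 CPM in olig2 and 359.9 and 283 CPM in dbx1b, so that both olig2 libraries lay above both nkx2.2a libraries and the dbx1b range overlapped with both other sorts. Single markers differed from the sum. Like wnt1, lmx1bb was highest in nkx2.2a library 2, at 14.8 and 42.2 CPM in nkx2.2a, 0.910 and 2.84 CPM in olig2 and 2.16 and 12.0 CPM in dbx1b. In contrast snai2 was highest in olig2 library 1, at 98.6 CPM, and zic2a in dbx1b library 1, at 94.0 CPM. The part of roof plate cells in the wnt1 and wnt3a levels was not tested.

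In the Wnt7 family 1 gene, wnt7bb, was found almost wholly in the nkx2.2a sort. Its level was 7.24 and 13.9 CPM in nkx2.2a libraries, 0 and 0.236 CPM in olig2 and 0 and 0.141 CPM in dbx1b. This was 92 fragments in the nkx2.2a libraries against 1 fragment in each of the other sorts. The ratio of pooled levels was 125 in nkx2.2a over dbx1b (exact 95% interval 21.9 to 5005, counting error only) and 72.5 in nkx2.2a over olig2 (12.7 to 2895). The edgeR unadjusted p was 0.0141 against dbx1b (adjusted p = 0.717) and 0.0210 against olig2 (adjusted p = 0.554). The gene wnt7bb had enough reads to be tested only through the nkx2.2a libraries, so these p-values are no separate support for its being high there. Its relative wnt7ba was present throughout, from 5.75 CPM in dbx1b library 1 to 18.7 CPM in olig2 library 2, and both nkx2.2a libraries lay above both dbx1b libraries while olig2 overlapped with both. Another relative, wnt7aa, reached 14.6 CPM in olig2 library 1 and at most 1.83 CPM in any other library.

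The remaining planar polarity ligands had other orders of sorts. The transcript called wnt11r in the files (now wnt11 in the RefSeq table) was at 71.8 and 106 CPM in nkx2.2a, 142 and 116 CPM in olig2, and 160.4 and 59.8 CPM in dbx1b cells. The dbx1b libraries enclosed the other 4, and the 95% intervals of its 3 log2 fold changes lay within -1.75 to 1.44. The gene called wnt11 (now wnt11f2, the silberblick gene of gastrulation movements) was at 22.0 and 54.9 CPM in nkx2.2a, 13.3 and 6.62 CPM in olig2, and 1.62 and 11.5 CPM in dbx1b cells. Both nkx2.2a libraries lay above the other 4, and the log2 fold changes of 1.94 ± 1.14 over olig2 (unadjusted p = 0.120) and 2.54 ± 1.16 over dbx1b cells (unadjusted p = 0.0549) missed the unadjusted threshold.

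Levels of wnt4a, a non-canonical ligand gene of the neural tube, were 20.1 and 22.6 CPM in nkx2.2a, 72.8 and 40.6 CPM in olig2, and 46.9 and 42.2 CPM in dbx1b. Both nkx2.2a libraries lay below the other 4. The difference in nkx2.2a over olig2 cells was -1.41 ± 0.63 (edgeR unadjusted p = 0.0517, adjusted p = 0.576). Its paralogue wnt4b, described from the floor plate of the fish, was at 2.52 and 0.301 CPM in nkx2.2a, 64.0 and 2.13 CPM in olig2, and 4.13 and 6.19 CPM in dbx1b. A single olig2 library held nearly all of it: the log2 fold change in nkx2.2a over olig2 cells was -4.50 ± 1.73 (edgeR unadjusted p = 0.0276, adjusted p = 0.554) and -0.57 without olig2 library 1. Floor plate markers summed to 393 CPM in olig2 library 1, 317 CPM in olig2 library 2 and 947 and 1109 CPM in the nkx2.2a libraries, while 1 of them, foxj1a, was highest in olig2 library 1, at 81.6 CPM against 0 to 36.2 CPM elsewhere. The part of floor plate cells in the wnt4b level was not tested.

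Among receptors, fzd7a and fzd7b encode the Frizzled proteins that take up Wnt11 and Wnt5b signals during axis extension and also act in the canonical branch. In CPM, fzd7a stood at 391 and 253 in nkx2.2a, 505 and 487 in olig2, and 506 and 348 in dbx1b cells. The level of fzd7b was 150.1 and 197, 93.7 and 189, and 238 and 129 CPM in the same order. Groups overlapped except for fzd7a between nkx2.2a and olig2 cells, where the log2 fold change was -0.62 (95% interval -1.43 to 0.19). The intervals of the other 5 differences lay within -1.46 to 1.38, so differences of up to about that size are not shown to be absent.

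The receptor gene fzd10, a canonical receptor known from the dorsal neural tube, was highest in dbx1b cells. It stood at 128 and 88.9 CPM in nkx2.2a, 149.9 and 194 CPM in olig2 and 479 and 250.1 CPM in dbx1b cells. No library of one sort overlapped with another sort, so the order from ventral to dorsal sort was kept by all 6 libraries. The log2 fold change was -1.75 ± 0.44 in nkx2.2a over dbx1b cells by edgeR (95% interval -2.74 to -0.75, unadjusted p = 0.00312, adjusted p = 0.525), and DESeq2 called it (adjusted p = 0.0244). In olig2 over dbx1b cells it was -1.08 ± 0.43 (edgeR unadjusted p = 0.0331, adjusted p = 0.507), and -0.56 without dbx1b library 1. Libraries of fzd6, given below, did not overlap between sorts either, in another order of sorts. The share of all symbols separated in this way was not counted. Summed tailbud and presomitic mesoderm markers were also highest in both dbx1b libraries. The part of such cells in the fzd10 level was not tested.

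Receptors of the fzd8 pair, known for roles in the anterior neural plate, were highest in nkx2.2a cells. The level of fzd8a was 103.1 and 102.5 CPM in nkx2.2a, 50.4 and 7.80 CPM in olig2, and 28.9 and 40.9 CPM in dbx1b. Both nkx2.2a libraries lay above the other 4, and the olig2 libraries enclosed the dbx1b libraries. The log2 fold change in nkx2.2a over olig2 cells was 1.82 ± 0.81 (edgeR unadjusted p = 0.0499, adjusted p = 0.571), from 1.04 without olig2 library 2 to 3.71 without olig2 library 1.

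Transcripts of fzd8b were at 21.2 and 32.0 CPM in nkx2.2a, 3.42 and 18.3 CPM in dbx1b, and 0 CPM in both olig2 libraries. Against a floor of 3 fragments over the olig2 group, the pooled level was at least 63.3-fold higher in nkx2.2a and at least 28.7-fold higher in dbx1b cells. The second bound rests mostly on dbx1b library 2, with 130 of the 149 fragments: it was 7.97-fold with dbx1b library 1 alone and 46.4-fold with library 2 alone. The difference had an unadjusted p of 6.8e-04 in nkx2.2a over olig2 cells (edgeR adjusted p = 0.376). It was 0.00134 in olig2 over dbx1b cells (edgeR adjusted p = 0.336). DESeq2 called both, at adjusted p = 4.15e-05 and 4.98e-04. Between nkx2.2a and dbx1b cells the log2 difference was 1.29, with an interval of -1.46 to 4.04. The third gene of this receptor family, fzd5, known from the eye field, was at 20.5 and 7.54 CPM in nkx2.2a, 10.01 and 1.42 CPM in olig2, and 33.4 and 1.55 CPM in dbx1b, with groups that overlapped.

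Brain markers were measured in the same libraries although the brain had been removed. Of 11 listed markers found, 4 were higher and 0 lower in the nkx2.2a sort when set against olig2 cells at edgeR unadjusted p under 0.05. Of all symbols, 6.12% were higher and 2.62% lower there. Against dbx1b cells 3 were higher and 1 lower, where 3.61% and 2.67% of all symbols were. Their summed level was 474 and 697 CPM in nkx2.2a, 323 and 305 CPM in olig2, and 520.1 and 617 CPM in dbx1b cells, so the nkx2.2a and dbx1b ranges overlapped. The forebrain genes six3b (43.1 and 72.4 CPM) and fezf2 (34.6 and 61.8 CPM) were highest in the nkx2.2a libraries and at most 6.29 CPM elsewhere. Markers at 0 were her5 in olig2 library 1 and dbx1b library 1, and six3a and eng2a in olig2 library 2. Other markers on the list were not highest there: otx2 was at 37.9 and 6.03 CPM in nkx2.2a, 86.5 and 40.9 CPM in olig2 and 13.3 and 34.9 CPM in dbx1b, and the hindbrain genes egr2b and mafba were highest in both dbx1b libraries. The midbrain-hindbrain boundary gene pax2a was at 68.6 and 198 CPM in nkx2.2a, 72.5 and 70.9 CPM in olig2 and 92.6 and 156 CPM in dbx1b. In nkx2.2a library 2, where wnt1 was at 58.5 CPM, pax2a, eng2b (73.6 CPM) and emx3 (39.8 CPM) had their highest levels. In dbx1b library 2, where wnt1 was at 6.89 CPM, eng2b was at 47.9 CPM and emx3 at 0.281 CPM. Floor plate markers (8 of 8 found) summed to 947 and 1109 CPM in nkx2.2a and 317 to 529 CPM elsewhere, notochord markers (6 of 7 found) to 628 and 947 CPM against 154 to 472 CPM, and epidermis markers (9 of 9 found) to 2387 and 2680 CPM against 831 to 1485 CPM. Single markers differed from these sums. The floor plate marker sulf1 was at 311 and 419 CPM in nkx2.2a and 313 and 327 CPM in dbx1b. Of the epidermis list, krt4 was highest in olig2 library 1, at 672 CPM, and cyt1 in olig2 library 2, at 316 CPM. Of the notochord list, col2a1a, col9a2, shha and shhb were highest in both nkx2.2a libraries, and shha and shhb are also floor plate markers. In contrast ta was at 20.1 and 4.52 CPM in nkx2.2a against 143 and 235 CPM in dbx1b. The notochord gene noto was at 3.93 and 0.301 CPM in nkx2.2a against 6.47 and 3.52 CPM in dbx1b. The part of brain cells or of any of these other cells in the fzd8a, fzd8b, wnt7bb and wnt1 levels was not tested.

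The receptor gene fzd3a, which guides axons and the migration of facial motor neurons in fish, was at 350.3 and 405 CPM in nkx2.2a, 599 and 357 CPM in olig2, and 231 and 302 CPM in dbx1b cells. Both dbx1b libraries lay below the other 4. The log2 fold change in olig2 over dbx1b cells was 0.84 ± 0.37 (edgeR unadjusted p = 0.0467, adjusted p = 0.523), and 0.41 without olig2 library 1. Its paralogue fzd3b reached 12.1 CPM in olig2 library 2 and at most 3.09 CPM in the others.

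Transcripts of fzd2, a receptor for Wnt5 ligands, were at 65.1 and 108 CPM in nkx2.2a, 41.0 and 31.9 CPM in olig2, and 94.6 and 75.1 CPM in dbx1b cells. Both olig2 libraries lay below the other 4. The log2 fold change was 1.25 ± 0.52 in nkx2.2a over olig2 cells by edgeR (unadjusted p = 0.0381, adjusted p = 0.561). Set against dbx1b, the olig2 cells gave -1.22 ± 0.52 (unadjusted p = 0.0421, adjusted p = 0.520).

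The 3 other receptors differed little or were scarce. The level of fzd6, whose mouse counterpart orients hair follicles, was 126 and 132 CPM in nkx2.2a, 111 and 100.4 CPM in olig2 and 141 and 133 CPM in dbx1b cells. For fzd6 the sorts did not overlap, with olig2 lowest and dbx1b highest. Its 3 log2 fold changes had 95% intervals within -1.25 to 1.17. The levels of fzd4, a receptor best known from blood vessels, were 65.2 to 116 CPM with overlapping groups and intervals within -1.03 to 1.39. For fzd9b the range was 5.73 to 18.5 CPM, with the highest value in dbx1b library 1.

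**Figure D4:**
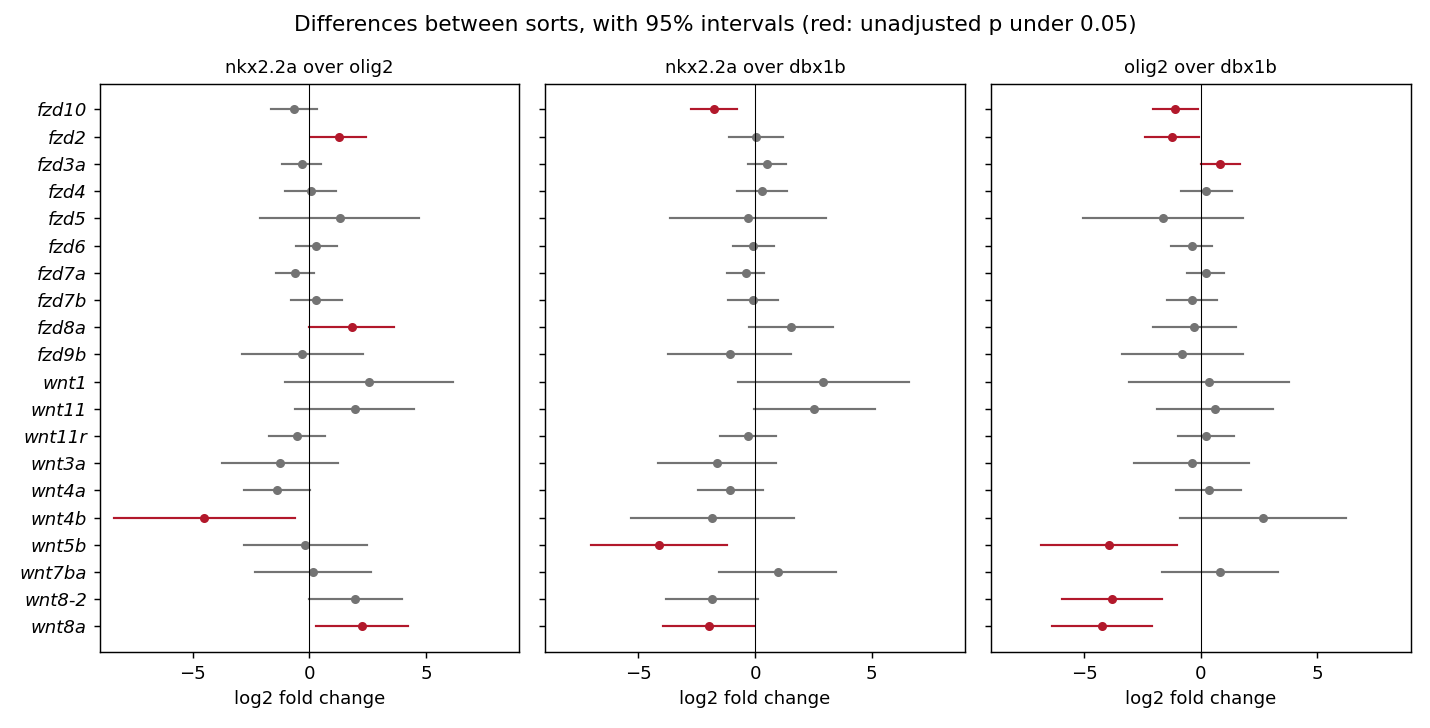
Log2 fold changes with 95% intervals of 20 members in the 3 comparisons, from edgeR's fit over all 19129 symbols, in red where the unadjusted p is under 0.05; fzd8b and wnt7bb are left out because a group holds 0 or 1 fragments. Intervals of the abundant receptors are short and mostly span 0, those of wnt5b and wnt8a in olig2 over dbx1b cells lie wholly below 0, and no member passed with p adjusted over all symbols.

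Read by comparison, 29 of the 37 members, 17 ligands and 12 receptors, had enough reads to be tested. A scarce member could be among them through the sort where it is high, as wnt7bb was through nkx2.2a. In nkx2.2a over olig2 cells, 6 of the 29 (20.7%) had an unadjusted p under 0.05, where 8.75% of all symbols did. Higher in nkx2.2a were 5 (fzd2, fzd8a, fzd8b, wnt7bb and wnt8a; 6.12% of all symbols were) and wnt4b was lower (2.62%). In nkx2.2a over dbx1b cells it was 4 of 29 (13.8%) against 6.27% of all symbols, with wnt7bb higher (3.61% of all symbols) and fzd10, wnt5b and wnt8a lower (2.67%). In olig2 over dbx1b cells it was 7 of 29 (24.1%) against 9.53%, with fzd3a higher (3.7% of all symbols) and fzd2, fzd8b, fzd10, wnt5b, wnt8a and wnt8-2 lower (5.83%). The 3 comparisons share sorts, and wnt8a and wnt8-2 divide the reads of 1 locus. The median log2 fold change of the tested members was 0.29, -0.30 and -0.37 in the 3 comparisons (-0.27 in the last with members at 0 in a sort set to their bound), where it was 0.05, -0.00347 and -0.05 over all symbols.

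The other 15 members had group means under 10 CPM, though not all were near the limit of detection. Of these, 8 were too low to test (fzd1, wnt2, wnt2ba, wnt3, wnt5a, wnt8b, wnt9a and wnt10b), and their highest value was 2.41 CPM, for wnt3 in nkx2.2a library 2. For wnt2, wnt2ba and wnt9a 0 reads were counted in any library, and the upper limit that 0 counts allow (3 fragments) was 0.433 to 0.922 CPM, depending on the library. The 7 that were tested were fzd3b, wnt2bb, wnt6b, wnt7aa, wnt9b, wnt10a and wnt16. Their highest value was 14.6 CPM, for wnt7aa in olig2 library 1 (48 fragments), and fzd3b reached 12.1 CPM in olig2 library 2 (51 fragments). Of the 7, 0 had an unadjusted p under 0.05 in any comparison. Among them wnt6b was counted in 1 nkx2.2a and 1 dbx1b library and wnt9b in both nkx2.2a libraries and 1 dbx1b library, and both were at 0 in olig2 cells.

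Other genes of the pathway were counted from lists chosen with earlier results of these data known. Of 81 listed genes, 73 were found and 64 tested. At unadjusted p under 0.05, 4 were higher and 2 lower in nkx2.2a over olig2 cells, 5 higher and 7 lower in nkx2.2a over dbx1b cells, and 5 higher and 7 lower in olig2 over dbx1b cells. That was 9.38%, 18.8% and 18.8% of the 64 in turn, against 8.75%, 6.27% and 9.53% of all symbols. The first share is thus near that of all symbols. For the lists below, 6.12%, 3.61% and 3.7% of all symbols were higher and 2.62%, 2.67% and 5.83% lower in the same order. With p adjusted over all symbols by edgeR 0 passed in any comparison. DESeq2 called 4 in each, where it called 3.37%, 2.4% and 4.21% of the symbols to which it gave an adjusted p. The median log2 fold changes of the tested pathway genes were -0.04, -0.32 and -0.39 (-0.35 with genes at 0 in a sort set to their bound). Over all symbols they were 0.05, -0.00347 and -0.05.

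Upstream of secretion, wls, the carrier that brings Wnt proteins to the cell surface, was most abundant in the sort with the most ligand transcripts. It stood at 133 and 217 CPM in nkx2.2a, 203 and 142 CPM in olig2, and 477 and 505 CPM in dbx1b cells. Neither other sort overlapped with the dbx1b libraries. The log2 fold change was -1.49 ± 0.39 in nkx2.2a over dbx1b (edgeR unadjusted p = 0.00378, adjusted p = 0.554). Between olig2 and dbx1b cells it was -1.51 ± 0.39 (unadjusted p = 0.00346, adjusted p = 0.396).

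Of 11 secreted inhibitors tested, nkx2.2a cells had 2 higher when set against olig2 and 2 higher when set against dbx1b cells, and olig2 cells had 1 lower when set against dbx1b, at unadjusted p under 0.05. The gene sost, which encodes the LRP-binding inhibitor sclerostin, was at 10.9 and 14.5 CPM in nkx2.2a, 0 CPM in both olig2 libraries, and 0.180 and 0.422 CPM in dbx1b. Like wnt7bb, sost had enough reads to be tested only through the nkx2.2a libraries. Its place in both nkx2.2a counts is thus no separate support for its being high there. Transcripts of sfrp5, a secreted Frizzled-related protein that binds Wnts, were at 112 and 117 CPM in nkx2.2a, 72.8 and 15.1 CPM in olig2, and 24.3 and 24.0 CPM in dbx1b cells. In contrast frzb, of the same class, was highest in dbx1b, at 8.63 and 12.7 CPM against 0.607 and 0.473 CPM in olig2 and 7.08 and 1.21 CPM in nkx2.2a. The fourth, dkk3b, had 8.02 CPM in nkx2.2a library 1, 0 CPM in nkx2.2a library 2 and both olig2 libraries, and at most 1.27 CPM in dbx1b. Its place among the genes higher than in olig2 cells thus rests on nkx2.2a library 1. The list's median in olig2 over dbx1b cells was -1.32, and 0.37 with genes at 0 set to their bound, so its sign depends on genes near the floor.

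Of the 14 canonical target genes tested, 1 was higher and 1 lower in nkx2.2a than in olig2 cells at unadjusted p under 0.05. Against dbx1b cells, 3 were lower in nkx2.2a (cdx4, tbx6 and sp5l) and 3 in olig2 (tbx6, sp5l and znrf3). In either of these comparisons 0 were higher. The target sp5l, a zinc finger gene, was at 31.8 and 20.2 CPM in nkx2.2a, 14.3 and 51.0 CPM in olig2, and 108 and 115 CPM in dbx1b cells. Transcripts of cdx4, a caudal homeobox gene, were at 91.6 and 85.9, 370.4 and 299, and 445 and 334 CPM in the same order. With tbx6, these are also genes of the tailbud, and cdx4 and tbx6 stand on the marker list given above. The level of znrf3, a target that removes Frizzled receptors from the cell surface, was 37.1 and 65.1 CPM in nkx2.2a, 7.89 and 11.6 CPM in olig2, and 34.9 and 34.2 CPM in dbx1b. Both olig2 libraries lay below the other 4, as for fzd2, and the log2 fold change in nkx2.2a over olig2 cells was 2.39 ± 0.73 (edgeR unadjusted p = 0.00919, adjusted p = 0.535).

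The list of TCF factors, which also holds the co-repressor genes tle3a and tle3b, had 7 genes tested. Of these, tcf7l1b, a repressor form of TCF, was higher in nkx2.2a than in either other sort at unadjusted p under 0.05. It stood at 115 and 168 CPM against 45.2 and 67.4 CPM in olig2 and 73.9 and 49.6 CPM in dbx1b. Its relative tcf7l2 was at 21.4 and 58.5 CPM in nkx2.2a, 52.5 and 84.4 CPM in olig2 and 8.81 and 22.2 CPM in dbx1b cells. Among 13 genes of the destruction complex, Dishevelled and beta-catenin, apc2, an adenomatous polyposis coli gene, alone had an unadjusted p under 0.05. It was at 34.9 and 7.56 CPM in olig2 and at most 1.1 CPM in the other libraries. Only through the olig2 libraries did apc2 have enough reads to be tested, so its p-values are no separate support for its being high there.

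Of 16 tested genes for planar polarity proteins and co-receptors, 0 had an unadjusted p under 0.05 in nkx2.2a over olig2 cells, while 2 were higher and 3 lower in nkx2.2a over dbx1b cells, and 3 higher and 2 lower in olig2 over dbx1b cells. The gene ror2, which encodes a Wnt5 co-receptor, was at 50.4 and 48.5 CPM in nkx2.2a, 24.3 and 19.4 CPM in olig2 and 60.8 and 120.2 CPM in dbx1b cells. The level of ptk7a, another co-receptor of this branch, was 38.4 and 31.7, 56.1 and 24.3, and 159 and 112 CPM in the same order. In contrast celsr1a, a cadherin of the planar polarity core, was lowest in the dbx1b sort, at 146 and 169.6 CPM against 226 and 355 CPM in nkx2.2a and 359 and 286 CPM in olig2. The dbx1b sort was also lowest for celsr3, which acts in axon guidance in mice, with 2.52 and 3.09 CPM in dbx1b against 10.9 to 37.1 CPM in the other libraries.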

How the data were processed

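RNA from sorted cells had been sequenced in 6 libraries. Bowtie 1.1.1, FastQC 0.11.3 and the build GRCz10 stand in the submitters' processing notes, with no role given. The counts, as deposited by the authors, give for each RefSeq transcript its mapped reads without normalisation, and every count is even (both mates counted). Reads without a transcript (66.6% to 80.6% of a library) were left out. The handling of reads that match more than 1 transcript was not given in the sources used, and values of near-identical copies are uncertain. The FPKM values are the authors' own: 326622 of 326622 equalled, within a relative 1e-06, the value recomputed from counts and lengths. The authors' table of mean FPKM ratios was not used.

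Counts were summed per symbol, and 37 of the 37 members matched a current symbol or synonym in the RefSeq table (GRCz12tu). That table was used for names, and its coordinates only to compare wnt8a with wnt8-2. Members are those matching the name rule; the members and lists were chosen with earlier results of these data known. Differences were tested with edgeR 4.0.16 in R 4.3.3 (filterByExpr with a minimum count of 10, TMM scaling, quasi-likelihood fit, 1 mean per group over 6 libraries, 3 residual degrees of freedom). P-values were adjusted by the Benjamini-Hochberg method over 19129 symbols. Standard errors derive from the F statistic. CPM are TMM-scaled, over all symbols. Genes were named with values if their highest group mean reached 10 CPM or their unadjusted p was under 0.05 in any comparison, and other pathway genes by the p rule alone, up to 4 per list. The fitting was tested on simulated data. Nothing in the labels tells whether the 2 libraries of a sort came from different embryos, and p-values then reflect only library-to-library spread, which may be technical. Floors are 3 fragments. Intervals and floors cover counting error only. Alternatives were other scalings, filters, DESeq2 1.42.0, a replicate block, fragments in place of reads, 4 libraries only, and leaving out each library; summing wnt8a and wnt8-2 was chosen after seeing the data.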

Additional observations from a re-analysis of the deposited data

How the results depend on the processing

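The counts depended on the tool and the filter. Values are given for 3 comparisons in turn, nkx2.2a with olig2, nkx2.2a with dbx1b, then olig2 with dbx1b. Of all symbols edgeR called 0, 1 and 0, DESeq2 called 569, 379 and 696, and edgeR with no low count filter called 233, 238 and 292. Among members the calls went from 0, 0 and 0 to 1, 3 and 4 with DESeq2 and to 1, 2 and 4 with no filter. In nkx2.2a over dbx1b cells the 1 symbol called became 0 without composition scaling and 2 with only the 4 libraries compared, and in olig2 over dbx1b cells 0 became 2 with fragments in place of reads and 3 with the replicate block. Leaving out 1 library gave 0 to 6, 0 to 65 and 0 to 7 called symbols and 0 called members in each comparison. Members at unadjusted p under 0.05, 6, 4 and 7, were 8 in nkx2.2a over dbx1b cells with DESeq2 or no filter and 7 with 4 libraries, and 3 in nkx2.2a over olig2 cells with 4 libraries. With a library left out they were 1 to 7, 3 to 8 and 4 to 7, with 1 without nkx2.2a library 2 and 3 without olig2 library 1 in the first comparison, 8 without either olig2 library in the second, and 4 without dbx1b library 1 in the last.

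Over all symbols tested, the numbers 1 and 2 showed no sign of pairing the libraries: deviations from the group means correlated at 0.02, -0.01 and 0.02 between groups. Such correlations cannot exclude a shared day or pool, which the labels do not state. With the replicate block, wnt5b moved from -4.12 to -5.19 in nkx2.2a over dbx1b cells and from -3.95 to -5.06 in olig2 over dbx1b cells. With the replicate block 5, 6 and 5 members had an unadjusted p under 0.05. A filter of 1 CPM amounts to the main filter at these depths. It tested the same number of symbols, 19129, and gave the same counts, so it is no separate check. No difference given for a member at unadjusted p under 0.05 turned its direction under any of its 14 or 15 alternatives. Of 66 group means of members, 65 moved by less than 1 SD with RLE or with no composition scaling, as did 64 of 66 per length with the longest transcript. By that measure fzd7b, not fzd3a, was second among receptors in nkx2.2a library 1, and the wnt8 locus, not wnt5b, second among ligands in dbx1b library 1. A single fragment was worth 0.144 to 0.307 CPM, so differences among members below about 1 CPM were not detectable at this depth.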
